A study of Mus musculus with 6 samples.

Results

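The regions described here were stretches of open chromatin that lay in or across exons, away from any annotated promoter, and that were called in both genotypes. They were selected on the peak lists themselves. Overlapping entries were merged within the conservative list of each genotype and then between the lists, and 46152 of the merged regions overlapped entries of both lists. Kept were those farther than 1 kb from every annotated transcription start that overlapped an annotated exon by at least 1 bp. This left 2317 of the 66679 merged regions, or 5.02% of the shared ones. Presence in both lists is what chose them and is no finding.

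ATAC-seq, in which the Tn5 transposase inserts sequencing adapters into accessible DNA, was performed on primary smooth muscle cells of the mouse oviduct taken on day 2 of pregnancy, after mating with a stud male. Females were 8 to 12 weeks old, and 50000 cells of digested and briefly plated oviduct entered each library. There were 3 libraries labelled WT and 3 labelled Pbrm1 cKO, the conditional knockout. Per the paper, control littermates carried the floxed allele (Pbrm1 fl/fl) and the cKO added a Cre expressed from the progesterone receptor locus (PR-IRES-cre), so deletion is limited to cells that express or once expressed this receptor, and the alleles were not recorded in the labels. No strain was given there. Pbrm1 encodes BAF180, a subunit that targets the PBAF form of the SWI/SNF nucleosome remodeller. Peak lists do not show the deletion and so do not check the genotype labels. Among all 46152 shared regions, promoters of 6 of 8 smooth muscle markers were open (without Actg2 and Myocd), as were 58.6% of all coding genes. The counts were 5 of 8 for endothelial, 3 of 7 fibroblast, 2 of 4 mesothelial, 2 of 9 immune and 2 of 10 epithelial markers. Counts this small do not identify the cells, and other cell types in the plated cells were not tested further.

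Exons are best known as the part of a gene kept in RNA, yet their DNA also binds transcription factors and can act as an enhancer or as an alternative promoter. AP-1, a family of FOS and JUN dimers, opens distal regulatory DNA in many cell types, SP and KLF factors bind GC boxes of promoters, and CTCF binds a long motif and anchors chromatin loops. These properties are background and were not measured here.

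As examples of strong sites, 200 bp around the summit are printed for the 6 best-ranked regions whose window held coding exon and no untranslated sequence. They do not stand for the whole set, in which 14.2% of regions had the summit in coding sequence. All 6 windows are the plus strand of GRCm38, written 5′ to 3′, with annotated exon bases in capitals.
Prdm2 (chr4:143162065-143162264): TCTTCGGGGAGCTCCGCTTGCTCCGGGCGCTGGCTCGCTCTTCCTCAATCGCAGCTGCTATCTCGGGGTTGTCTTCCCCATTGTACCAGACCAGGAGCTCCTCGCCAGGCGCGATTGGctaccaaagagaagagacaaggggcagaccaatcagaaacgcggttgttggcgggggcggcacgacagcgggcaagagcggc
Clec11a (chr7:44304887-44305086): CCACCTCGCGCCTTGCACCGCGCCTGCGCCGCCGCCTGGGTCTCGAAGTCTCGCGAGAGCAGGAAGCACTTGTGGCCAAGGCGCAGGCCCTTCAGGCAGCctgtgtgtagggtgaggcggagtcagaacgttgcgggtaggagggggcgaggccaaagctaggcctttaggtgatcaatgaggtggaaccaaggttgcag
Lpar5 (chr6:125081916-125082115): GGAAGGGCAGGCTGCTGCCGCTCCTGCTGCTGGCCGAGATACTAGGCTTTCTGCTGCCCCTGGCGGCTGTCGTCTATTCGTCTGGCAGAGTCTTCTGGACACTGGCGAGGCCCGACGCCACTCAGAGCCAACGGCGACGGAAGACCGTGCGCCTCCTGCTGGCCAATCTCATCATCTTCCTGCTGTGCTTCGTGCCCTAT
Synpo2l (chr14:20661109-20661308): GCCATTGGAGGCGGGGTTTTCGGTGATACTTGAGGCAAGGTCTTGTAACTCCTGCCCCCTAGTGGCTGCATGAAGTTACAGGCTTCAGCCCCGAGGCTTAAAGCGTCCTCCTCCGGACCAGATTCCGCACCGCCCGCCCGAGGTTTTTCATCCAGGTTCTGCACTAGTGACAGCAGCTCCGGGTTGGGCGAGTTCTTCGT
Fry (chr5:150466332-150466531): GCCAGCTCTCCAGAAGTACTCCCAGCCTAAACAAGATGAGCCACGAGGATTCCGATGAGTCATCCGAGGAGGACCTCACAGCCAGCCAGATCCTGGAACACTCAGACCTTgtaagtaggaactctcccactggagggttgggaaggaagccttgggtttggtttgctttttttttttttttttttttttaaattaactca
Usp43 (chr11:67897113-67897312): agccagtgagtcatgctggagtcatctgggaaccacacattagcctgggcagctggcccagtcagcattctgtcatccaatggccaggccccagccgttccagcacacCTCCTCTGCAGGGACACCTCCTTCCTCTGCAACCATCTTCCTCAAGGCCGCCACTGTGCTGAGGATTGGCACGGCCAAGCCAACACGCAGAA
The window of Lpar5, a receptor for lysophosphatidic acid, and that of Synpo2l, an actin-associated protein of muscle, were exon throughout (200 of 200 bases). Prdm2, a zinc finger histone methyltransferase, had 118 exon bases, Fry, a scaffold for NDR kinases, 110, Clec11a, a secreted lectin, 100, and Usp43, a ubiquitin protease, 92. In Prdm2, Clec11a, Lpar5 and Synpo2l, GC content was between 58.5% and 64.5%, and the ratio of observed to expected CpG between 0.701 and 0.859. Over the windows of all 2317 regions the medians were 51.5% and 0.270. Fry and Usp43 had CpG ratios of 0.278 and 0.235, and each held the AP-1 letters TGANTCA 1 time. The window of Synpo2l held a core of the CTCF motif. A RefSeq transcript start, predicted ones included, lay inside the regions of Prdm2 and Usp43.

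A second set is shown because CTCF cores were most frequent at summits in 3′ untranslated regions (3′ UTRs), as given below. It was chosen after these values were seen. The 30 bases around the core, in capitals and on the strand that reads as the motif, are printed for the 6 best-ranked regions with a core within 100 bp of a 3′ UTR summit, followed by Mettl14, the only region called in the comparison of genotypes.
Slc4a3 (chr1:75559667-75559696, minus strand): caaaaaccaCCACCAGAGGGCtacacacgg
Zbtb7b (chr3:89378465-89378494, plus strand): agggcatggCCACCAGATGGCgctagcttg
Sytl2 (chr7:90410139-90410168, minus strand): catatgcagCCAGTAGGTGGCaccaaagtc
Ehd2 (chr7:15948487-15948516, plus strand): actacctttCCACCAGAGGGCgcccagggc
Tnfrsf1b (chr4:145214570-145214599, plus strand): caggacgggCCACCAGGGGGCagacgtgtt
Ror2 (chr13:53109743-53109772, plus strand): catcctccgCCAGCAGGGGGCtcacggagc
Mettl14 (chr3:123372093-123372122, minus strand): ccttggaagCCACTAGAGGGCgcgtctgtc
Centres of these cores lay between 4 bp (Slc4a3) and 86 bp (Ehd2) from the summit. Their host genes encode an anion exchanger (Slc4a3), a zinc finger repressor (Zbtb7b), a synaptotagmin-like Rab effector (Sytl2), a caveolar ATPase (Ehd2), a TNF receptor (Tnfrsf1b), a Wnt receptor tyrosine kinase (Ror2) and the partner of Mettl3 in the RNA adenosine methyltransferase (Mettl14).

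The 2317 regions had a median width of 525 bp (quartiles 358 and 731, range 128 to 1831), close to shared regions in introns (513 bp) and between genes (517 bp) and narrower than shared promoter regions (753 bp). Their median distance to the nearest transcription start was 5339 bp, with 450 (19.4%) under 2 kb and 643 (27.8%) beyond 10 kb. At the limit itself, the members nearest to a start were 1001 bp away, in Gm26840 (ranked by −log10 p from 32609 to 61058 over the 6 libraries, where 1 is the strongest), Ppfia3 (14270 to 24488.5) and Gm27240 (10852 to 18900). Left out just inside the limit were exonic regions at Prox2 (1000 bp, ranked from 8966 to 15112.5), Peg13 (996 bp, 19554.5 to 56559) and Gm15725 (995 bp, 11197 to 24116). Every region had an entry in at least 5 of the 6 libraries, 2285 had one in all 6, and of the other 32, WT library 3 lacked it at 31 and Pbrm1 cKO library 3 at 1.

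Most of these regions were not exonic over their whole length. The median region had 52.7% of its bases in exons, 798 (34.4%) were exonic throughout, and 225 (9.71%) had under 10% in exons. The exon that was overlapped was often a long one, with a median of 609 bp. It was over 1 kb at 1016 regions (43.8%) and under 200 bp at 799 (34.5%). A last exon was touched by 1423 regions (61.4%), 1067 of them touching no other kind, while 883 touched internal exons alone and 156 touched a first exon. The median position along the gene from its start was 82.2%. Leaving out regions within 1 kb of a start favours later exons and positions, and expected values were not computed.

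By the kind of exon, 1200 regions (51.8%, 95% Wilson interval 49.8% to 53.8%) touched coding sequence, 454 (19.6%) touched a 3′ UTR but no coding sequence, and 37 (1.60%) a 5′ UTR. A further 189 (8.16%) touched only noncoding transcripts of coding genes and 437 (18.9%) only exons of noncoding genes. The summit, the base with the strongest signal, gave another picture. It was in an exon at 1334 regions (57.6%, 55.6% to 59.6%), in an intron at 895 (38.6%) and outside genes at 88 (3.80%). Where it was outside exons, the nearest exon edge was a median of 128 bp away. Only 330 regions (14.2%) had the summit in coding sequence, whereas 486 (21.0%) had it in a 3′ UTR. Of the regions that touched coding sequence, 27.5% had their summit there and 59.8% had it in no exon, whereas 85.2% of the 3′ UTR regions had their summit in the 3′ UTR. These intervals cover counting error alone, since neighbouring regions and regions of the same gene are not independent.

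Because exons make up little of the genome, summits were also set against the length of each kind of sequence lying over 1 kb from a start. Coding exons held 13.2 summits of shared regions per Mb (exact Poisson interval 11.8 to 14.7), introns 14.8 (14.5 to 15.0), 3′ UTRs 15.8 (14.4 to 17.2) and other exons 18.3 (16.7 to 19.9). Sequence between genes held 9.46 (9.30 to 9.63), and all such sequence together 11.9. The value for 5′ UTRs, 34.2, rested on 23 summits (21.7 to 51.4). The coding interval thus lay below the intron value, though it overlapped the intron interval. The 3′ UTR interval included the intron value, and the interval of other exons lay above that of introns.

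**Figure D1:**
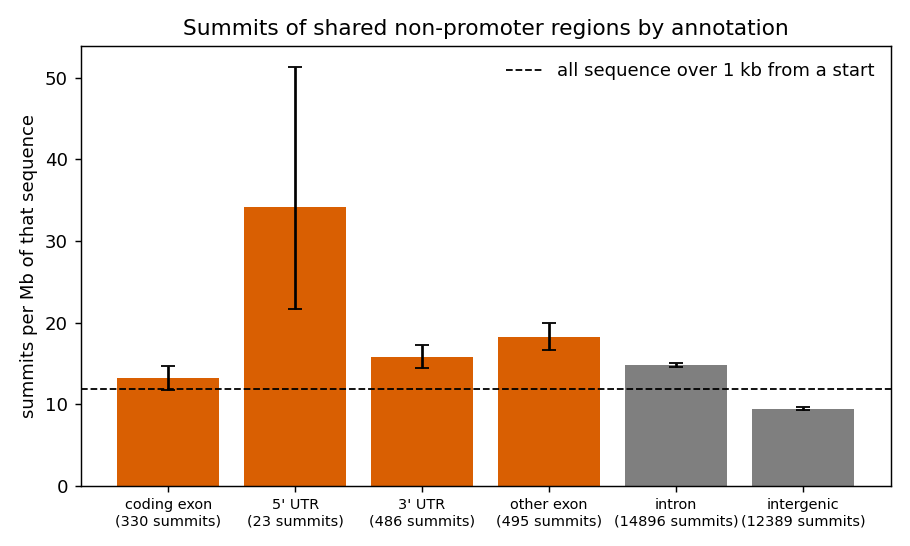
Summits of shared non-promoter regions per Mb of sequence lying over 1 kb from any transcription start, by annotation, with exact 95% Poisson intervals as error bars. Orange bars are exons and grey bars other sequence, the dashed line is the value over all such sequence (11.9 per Mb), and intergenic sequence is the lowest bar at 9.46 per Mb.

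The regions lay in exons of 2115 genes, 1936 of which had a single region and 164 had 2. Of 22028 protein-coding genes, 1681 (7.63%) were named by a region. At 1273 of these (75.7%) the promoter of the same gene was also a shared region, against 12901 (58.6%) of all coding genes. Syne1, which encodes the giant nuclear envelope protein nesprin-1, and Synpo, which encodes the actin-binding synaptopodin, had 5 regions each. Dst (dystonin, a cytoskeletal linker), Jmjd1c (a Jumonji-domain protein), Tnxb (tenascin-X of the matrix) and Zbtb20 (a zinc finger repressor) had 4 each. 4930578M01Rik, B430305J03Rik, Bmpr1b (a BMP receptor) and Epg5 (an autophagy factor) had 3 each.

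In base composition the summits resembled distal regions more than promoters. The median GC content of the 200 bp windows was 51.5%, against 48.5% in shared intronic, 49.0% in intergenic and 62.0% in promoter regions. The median CpG ratio was 0.270, against 0.219, 0.243 and 0.731. Motifs were searched on both strands, each on its own even where matches overlapped. The AP-1 letters TGANTCA were in 38.8% of the exonic windows (36.9% to 40.8%), 48.3% of intronic, 44.0% of intergenic and 12.0% of promoter windows. GGAATG (TEAD) was in 16.6%, TGTGGT (RUNX) in 16.5% and GATAA (GATA) in 17.3% of the exonic windows. The SP/KLF letters GGGCGG were in 12.0% of exonic and 49.6% of promoter windows, with 6.29% in introns and 8.36% between genes. The CTCF core was in 8.98% (7.88% to 10.2%) of exonic windows, in 5.67% of intronic, 8.04% of intergenic and 2.40% of promoter ones. The CArG box of serum response factor was in 18 windows (0.777%).

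**Figure D2:**
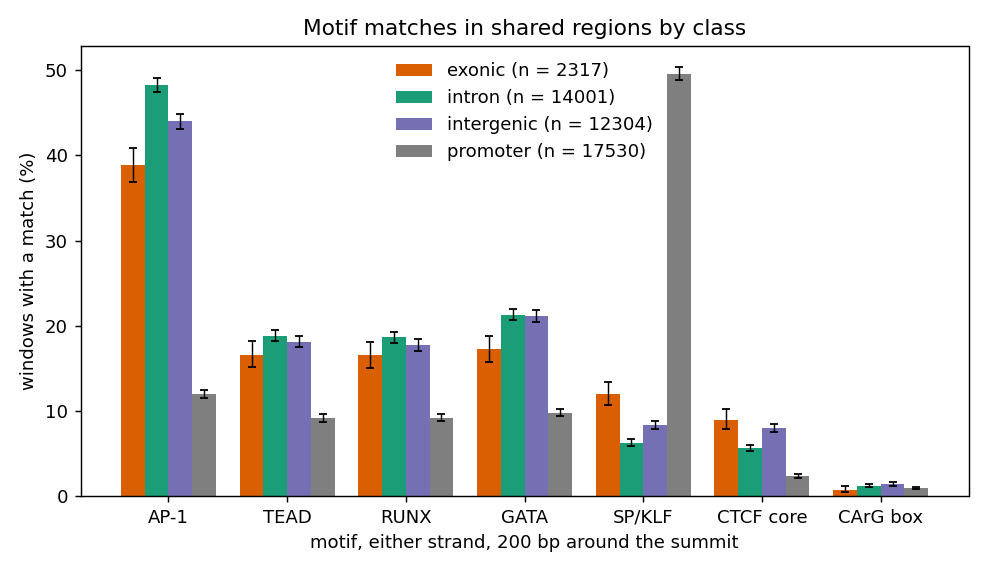
Share of 200 bp summit windows with a match to each motif on either strand, for shared exonic, intronic, intergenic and promoter regions, with 95% Wilson intervals as error bars. AP-1 matches are in 38.8% of exonic against 12.0% of promoter windows, and SP/KLF matches in 12.0% against 49.6%.

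The kinds of exon differed in these features. A CTCF core was found at 68 of 486 summits in 3′ UTRs (14.0%, 11.2% to 17.4%), at 30 of 330 in coding sequence (9.09%, 6.44% to 12.7%), at 83 of 983 outside exons (8.44%) and at 12 of 295 in exons of noncoding genes (4.07%, 2.34% to 6.97%). AP-1 letters were in 26.4% of windows with a coding summit, 35.0% with a 3′ UTR summit and 43.1% with a summit outside exons. CpG-rich windows, with a GC content over 50% and a CpG ratio over 0.6, were 33.3% of those at coding summits and 6.58% of those at 3′ UTR summits.

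The 242 CpG-rich regions (10.4%) were, by their definition, nearer to promoters in base composition. Regions were ranked within each library by their best −log10 p, with 1 as the strongest of 66679. The median of the mean rank over the 6 libraries was 21067.5 in the CpG-rich regions and 30429 in the others. Of the 100 best-ranked exonic regions 35 were CpG-rich. SP/KLF letters, all G or C with a CpG among them, were in 39.7% of CpG-rich and 8.77% of other windows. AP-1 letters, which include A and T, were in 5.79% and 42.7%. Both contrasts follow in part from the definition by composition. The summit was in an exon at 77.7% of the CpG-rich and 55.2% of the other regions. Another annotation also bears on these: 117 regions (5.05%) lay within 1 kb of a RefSeq transcript start, predicted ones included, and 18 within 1 kb of a curated one. The 117 had a median mean rank of 23233 and a CpG ratio of 0.403, against 30061 and 0.267 for the rest.

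Few exonic regions were among the strongest. They were 1 of the 1000 best-ranked shared regions, 52 of the best 5000 (1.04%) and 202 of the best 10000 (2.02%). Other regions away from promoters were also less frequent there than among all shared regions. Intronic regions were 9.72% and intergenic ones 10.3% of the best 10000. Of all shared regions they were 30.3% and 26.7%, and exonic ones 5.02%. The strongest exonic region was at Prdm2. Its ranks were 204, 619 and 960 in WT libraries 1 to 3 and 496, 531 and 981 in Pbrm1 cKO libraries 1 to 3. It was the only exonic region among the best 1000, and its levels overlapped between genotypes. Next was Sf3b5, an intronless gene for a subunit of the SF3b splicing complex, with ranks of 1098, 1796 and 1615 in WT and 625, 1948 and 1244 in Pbrm1 cKO. Nup160, which encodes a nuclear pore protein, was ranked 4016.5, 343 and 2021 in WT and 1589, 627 and 635.5 in Pbrm1 cKO. At Clec11a the ranks were 1078, 805 and 3496 in WT and 329, 1781 and 2856 in Pbrm1 cKO. The ranks of the genotypes overlapped at each of these.

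Zfp286, a zinc finger gene, Cyb5r3, which encodes an NADH-cytochrome b5 reductase, Gm11946, Gm42743 and Lpar5 followed, with mean ranks from 1904 to 2428. Cyb5r3 was the only one of the 10 best-ranked with its summit in a 3′ UTR and the only one with AP-1 letters in its window. RefSeq transcript starts lay inside the regions of Prdm2, Sf3b5 and Zfp286. A430078I02Rik, an antisense gene that overlaps exons of C87436, was ranked 2553, 4269 and 4122.5 in WT and 1070, 1867 and 1390 in Pbrm1 cKO. Its genotypes did not overlap, and the difference of the rank score was 1.34 (SE 0.49, limma adjusted p = 0.199). The rank score is log2 of the number of regions over the rank, so that a difference of 1 is a 2-fold better rank in Pbrm1 cKO.

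**Figure D3:**
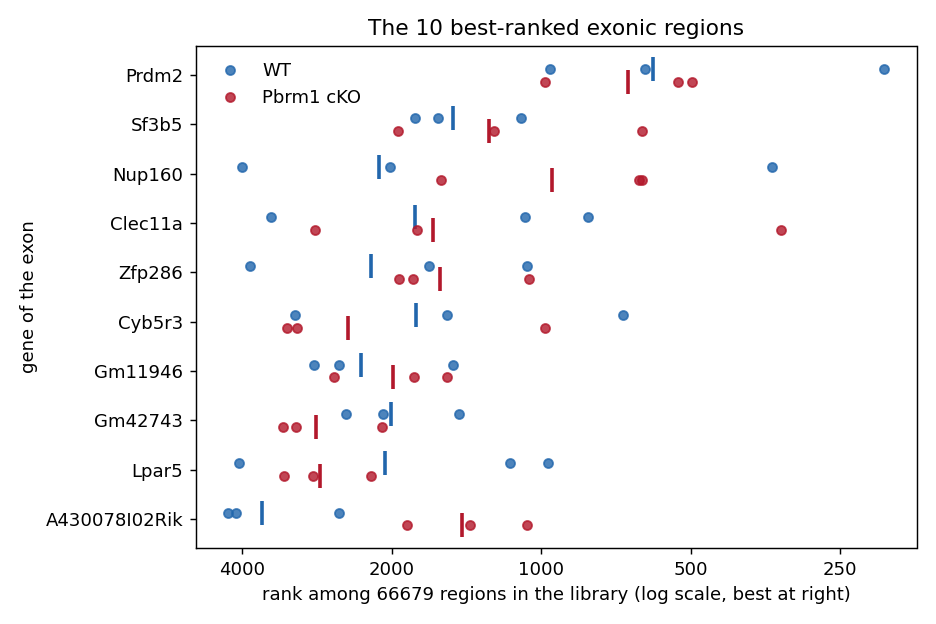
Rank of the 10 best-ranked exonic regions in each library on a log axis with the strongest at right, WT in blue and Pbrm1 cKO in red, each point 1 library and each bar the mean of 3. The genotypes overlap at 9 of the 10, and at A430078I02Rik all 3 Pbrm1 cKO libraries rank better than all 3 WT libraries.

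To ask how the deletion moved these regions, ranks were compared between genotypes with limma over all 66679 regions. Its p-values measure only the spread between these 3 and 3 libraries. Only 1 exonic region passed an adjusted p of 0.05, with a better rank in Pbrm1 cKO, and 0 passed with a worse one (smallest adjusted p 0.0846). Over all regions the same limma call was made at 0.039% in the higher and 0.0285% in the lower direction. An unadjusted p under 0.05 was reached by 254 exonic regions (11.0%) against 15.9% of all regions. When the ranks were turned into normal scores instead, 12 were called higher and 9 lower, where 0.993% and 1.33% of all regions were called. The 3 ranks of one genotype did not overlap those of the other at 442 exonic regions (19.1%), 290 of them better in Pbrm1 cKO and 152 worse, against 21.5% of all regions. Since members had to be called in both lists, which came from the same libraries, nothing is read from these counts against the background.

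The called region was in the 3′ UTR of Mettl14, at chr3:123371742-123372241, in a last exon of 6590 bp. Its ranks were 25952, 34830 and 25123.5 in WT and 8798, 7516 and 6963 in Pbrm1 cKO. Every Pbrm1 cKO library thus placed it far above every WT library. The authors' fold enrichment at its best entry was 11.1, 9.49 and 7.43 in WT and 19.4, 19.3 and 19.2 in Pbrm1 cKO. These ratios are not on 1 scale between libraries. At nearly the same rank, WT library 1 had 11.1 and WT library 3 had 7.43. The rank-score difference was 1.87 (SE 0.33, limma adjusted p = 0.0434). With normal scores the limma adjusted p was 0.00324, and with a replicate block it was 0.0231. The call was lost when any single library was left out, when ranks were taken from the fold enrichment and over regions with entries in all 6 libraries. Over 13 alternatives the limma adjusted p was 0.174 at most and the direction was the same.

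Among the regions next in the order of p, 4 with a better rank in Pbrm1 cKO had an adjusted p of 0.0906 by limma, and their genotypes did not overlap. With normal scores these 4 and the 5 regions of the next paragraph passed the threshold, with limma adjusted p from 0.0133 (4931428L18Rik) to 0.0415 (Gm16183). Zbtb40, a zinc finger gene with its region in the 3′ UTR, was ranked 55211, 39009.5 and 37564.5 in WT and 19452, 16153 and 15713 in Pbrm1 cKO (difference 1.34, SE 0.32). Il1r1, the receptor for interleukin-1, was ranked 48267, 53778 and 39244.5 in WT and 11999, 23984.5 and 18728 in Pbrm1 cKO (difference 1.41, SE 0.34). Its region reached into an internal exon of 169 bp, with the summit in the intron. Riox2, a ribosomal oxygenase, was ranked 48267, 32580.5 and 63416 in WT and 18779.5, 13411 and 20852.5 in Pbrm1 cKO. Pfkm, the phosphofructokinase of muscle, was ranked 23172.5, 41372.5 and 45797.5 in WT and 11217, 12836.5 and 15645.5 in Pbrm1 cKO, with the summit in a coding exon of 106 bp. Differences at these last were 1.42 (SE 0.34) and 1.43 (SE 0.35).

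On the other side, the smallest p was at 4931428L18Rik, ranked 11863, 10669.5 and 8201 in WT and 31693.5, 23320.5 and 31555.5 in Pbrm1 cKO (difference −1.50, SE 0.33, limma adjusted p = 0.0846). A RefSeq transcript start, predicted ones included, lay inside this region. St8sia1, the sialyltransferase that makes ganglioside GD3, was ranked 15089.5, 9298 and 19177.5 in WT and 33403.5, 40332 and 42356 in Pbrm1 cKO. Apba1, an adaptor of synaptic vesicle release, was ranked 31544.5, 28998 and 18230 in WT and 57919, 57391 and 56801.5 in Pbrm1 cKO, and its window was the richest in GC of these 10, at 75.5%. Gm16183, a gene antisense to Cacna1a, was ranked between 26580.5 and 29213.5 in WT and between 51795 and 60489.5 in Pbrm1 cKO. Its region lay 213 bp from a RefSeq transcript start. Differences at St8sia1, Apba1 and Gm16183 were −1.47, −1.17 and −1.01 (limma adjusted p = 0.0906 each). Frmpd2, a scaffold protein gene, was ranked 22726, 23238.5 and 16444.5 in WT and 45802, 44181 and 49180 in Pbrm1 cKO (difference −1.17, limma adjusted p = 0.101). It lies 2.39 Mb from Pbrm1 on chromosome 14. Of the 12 exonic regions within 5 Mb of Pbrm1, 1 had an unadjusted limma p under 0.05, against 11.0% of all exonic regions. A link to the targeted gene was not tested.

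**Figure D4:**
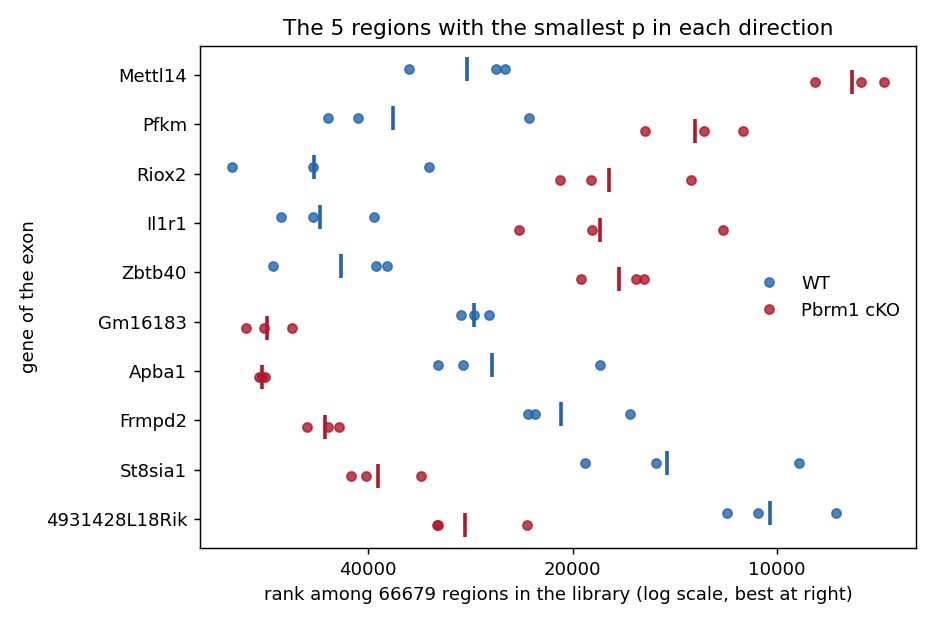
Rank in each library, on a log axis with the strongest at right, of the 5 exonic regions with the smallest p in each direction, WT in blue and Pbrm1 cKO in red, each point 1 library and each bar the mean of 3. The genotypes do not overlap at any of the 10, and the difference at Mettl14 (1.87) is the one past an adjusted p of 0.05.

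As a group, the exonic regions ranked slightly better in Pbrm1 cKO libraries. Their median rank was 28519, 28845 and 29213.5 in WT libraries 1 to 3 and 26899, 26704.5 and 26722.5 in Pbrm1 cKO libraries 1 to 3, so that the genotypes did not overlap. The median rank-score difference was 0.0740, and 57.1% of the regions had a positive one, against a median of 0.00055 and 50.0% over all regions. The median was 0.0211 in shared intronic, −0.0240 in promoter and −0.00896 in intergenic regions. It was between 0.0555 and 0.0895 when 1 library was left out, lowest without WT library 3, the library that most often lacked an entry. With ranks by fold enrichment it was 0.0434 (53.7% positive), where the median over all regions was −0.0299 (47.0%). On the scale of normal scores it was 0.0596, and 0.0312 without WT library 3 (54.2% positive), where all regions had 0.00939 and −0.000523. CpG-rich exonic regions had a median of −0.0536, with 42.6% positive.

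The difference was larger where the window held a CTCF core, a split chosen after the values were seen. In the 208 exonic regions with a core the median rank was 32761, 30046 and 31101 in WT and 28140.5, 27392.5 and 25513.5 in Pbrm1 cKO. The best WT library thus stood behind the weakest Pbrm1 cKO library. The median rank-score difference was 0.145, and 149 of the 208 (71.6%) were positive. In the 2109 regions without a core it was 0.0631, with 55.7% positive. Of the 68 with a 3′ UTR summit, 53 (77.9%) were positive. The genotypes did not overlap at 16 of them (23.5%), a share near the 21.5% of all regions. Each of the 16, Mettl14 among them, ranked better in Pbrm1 cKO, as did 290 of the 442 non-overlapping exonic regions. Nothing is read from this count or its direction. A larger difference with a core was also seen outside exons. The median was 0.151 in 794 intronic, 0.130 in 989 intergenic and 0.0930 in 421 promoter regions with a core. Without one it was 0.0126, −0.0216 and −0.0276. The exonic regions with a core were narrower (median 372.5 bp against 546 bp) and had a GC content of 53.5% against 51.0%, and the part of width and composition in the difference was not tested. The median in the 208 was between 0.108 (without Pbrm1 cKO library 2) and 0.211 (without WT library 2) when 1 library was left out, and 0.203 with ranks by fold enrichment.

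**Figure D5:**
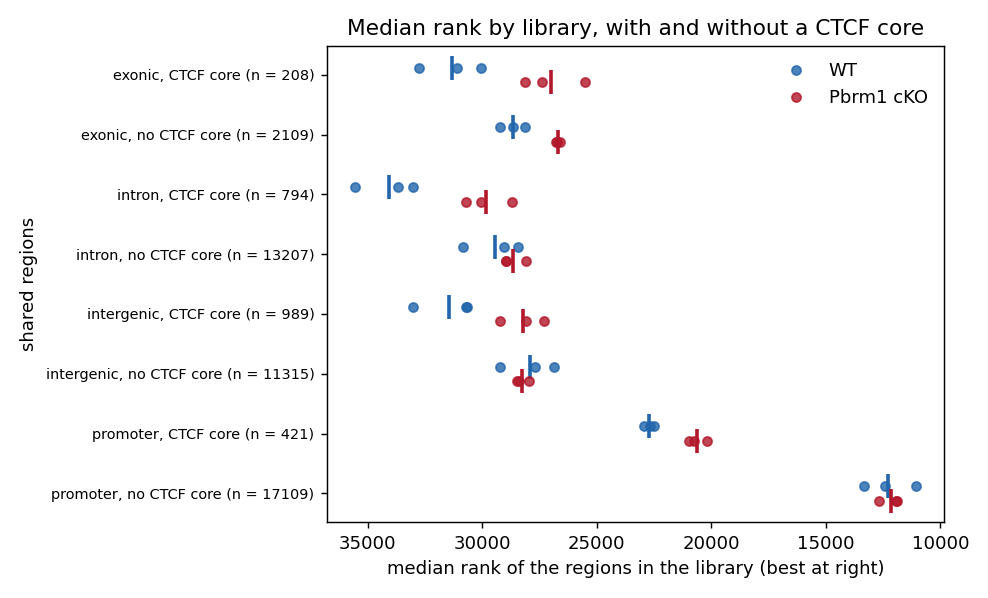
Median rank in each library, with the strongest at right, of shared regions of 4 classes with and without a CTCF core in the 200 bp summit window, WT in blue and Pbrm1 cKO in red, each point 1 library and each bar the mean of 3. With a core, the 3 Pbrm1 cKO libraries rank better than the 3 WT libraries in every class plotted, and without one the genotypes overlap in all classes but the exonic.

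The 6 printed regions with a CTCF core and a strong rank did not share the separation seen at Mettl14. At Slc4a3 the ranks were 3200.5, 2533 and 15818.5 in WT and 11187.5, 2951 and 4183 in Pbrm1 cKO, so 1 library of each genotype stood apart. At Tnfrsf1b they were 5847.5, 13155 and 14345 in WT and 8637.5, 5724.5 and 7133 in Pbrm1 cKO (difference 0.55, SE 0.40, limma adjusted p = 0.538). The genotypes overlapped at all 6.

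Gene lists of the tissue and of the remodeller were then read for exonic regions, beside the 7.63% of all coding genes that had one. The share of genes with a region was 10.0% for smooth muscle contractile, 28.0% for matrix, 4.00% for tract transcription factor, 11.1% for immediate early, 21.4% for steroid receptor and coregulator and 11.5% for SWI/SNF subunit genes. The lists are short (14 to 26 genes), and the shares were not tested. In the same order, 17 of 20, 18 of 25, 19 of 25, 18 of 18, 13 of 14 and 26 of 26 genes had a shared promoter region. Of all coding genes 58.6% had one, so the background is not of like genes. Exon number was not taken into account. Of the 20 regions in them limma called 0, where it called 0.039% higher and 0.0285% lower among all regions. An unadjusted p under 0.05 was reached by 2 of the 20, against 15.9% of all regions, and normal scores called 0, against 0.993% and 1.33%. Of 20 smooth muscle contractile genes, Lmod1 (leiomodin) and Mylk (myosin light chain kinase) each had 1, in the 3′ UTR. Lmod1 was ranked 11912, 13882 and 17800 in WT and 13027, 16334 and 18134 in Pbrm1 cKO, and Mylk between 30105 and 46386 over the 6 libraries. Among 25 matrix genes 7 had 9 regions, namely Col3a1, Col5a2, Fbn1, Hspg2, Lamb1, Sparc and Thbs1. The strongest was in Hspg2 (perlecan), ranked 5859, 6282 and 5180 in WT and 3633, 6775 and 4809 in Pbrm1 cKO. The median difference over the 9 was 0.25, and 6 were positive. Sparc, a collagen-binding glycoprotein, was ranked between 8300 and 16715 and Fbn1 (fibrillin-1) between 13478 and 22710.

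Of 25 transcription factor genes of the reproductive tract only Meis1, a homeobox gene, had a region, ranked from 33022 to 40561. Of 18 immediate early genes, Klf6 and Klf4 had 1 each. Among 14 genes of steroid receptors and coregulators, Ncoa3, a coactivator, was ranked 19394, 23169 and 28584 in WT and 14538, 14597 and 16734 in Pbrm1 cKO (difference 0.62, SE 0.32, limma adjusted p = 0.359). Its genotypes did not overlap. Esr1, the estrogen receptor, was ranked 43466, 39162 and 34571 in WT and 43613, 52028 and 52879 in Pbrm1 cKO (difference −0.34, limma adjusted p = 0.471). Its genotypes did not overlap either, with every Pbrm1 cKO library ranked worse.

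Of 26 genes for SWI/SNF subunits, Arid1a, Smarcc1 and Ss18 had a region. Smarcc1, which encodes a core scaffold shared by the forms of the complex, was ranked 57389, 49597 and 47515 in WT and 28812, 32630 and 32559 in Pbrm1 cKO (difference 0.71, SE 0.25, limma adjusted p = 0.170). Here the Pbrm1 cKO libraries were all better ranked. Arid1a, a subunit of the BAF form, was ranked 32352, 33814 and 42330 in WT and 43636, 25710 and 22204 in Pbrm1 cKO, with the genotypes overlapping.

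Finally, the share of exonic regions was compared among regions called in 1 list alone, as a description. Of 8908 regions of the WT list alone, 454 (5.10%, 4.66% to 5.57%) met the same distance and exon criteria. Of 11619 in the Pbrm1 cKO list alone it was 819 (7.05%, 6.60% to 7.53%). The other classes differed as well. In the WT list alone, 37.6% were intronic, 34.1% intergenic and 23.3% promoter regions. In the Pbrm1 cKO list alone, these shares were 43.9%, 32.3% and 16.8%. Each genotype had a single list, so the difference between genotypes was not tested.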

How the data were processed

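Peak lists of 6 ATAC-seq libraries (3 WT, 3 Pbrm1 cKO) and 1 conservative list per genotype were used. The authors' ATAC-seq methods, written for uterine stromal cells and taken here to cover these oviduct libraries, name version 1.9.0 of ENCODE's ATAC-seq pipeline, the GRCm38 assembly, MACS2 and an IDR threshold of 0.05, and the submitters' processing notes add cutadapt and Bowtie2. The deposited lists give, for each entry, a fold enrichment (ratio), a −log10 p and a score, all from the authors' peak caller. Each library list was relaxed (p of 0.01, at most 300000 entries), and total reads are unknown. In those methods the authors tested read counts with DESeq2. Which replicates entered the conservative lists was not stated. The files held no read counts, so ranks were used, which hide any change common to all regions of a library.

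Regions were ranked in each library by their best −log10 p, ties and missing entries sharing an average rank. The rank score, log2 of the ratio of all 66679 regions to the rank, was compared with limma 3.58.1 in R 4.3.3 (eBayes, trend on) with Benjamini-Hochberg adjustment. This procedure was tested on simulated data with planted changes larger than that at Mettl14, so its power for smaller changes was not tested. Exons and starts came from GENCODE M21, and sequence from the RefSeq copy of GRCm38. Summits were those of the best entry in either conservative list. Near-identical copies of the 200 bp summit windows were sought with BLAST+ 2.17.0 (95% identity over 90% of the window). Whether same-numbered libraries were prepared together is not known. Their deviations correlated at −0.00289, −0.0549 and 0.00906, which cannot settle this.

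A region was named by the gene whose exon it overlapped most. Named were the 10 best-ranked, those called and the 5 of smallest p in each direction, the 10 genes with most regions, up to 4 of each gene list and those at the 1 kb limit. The regions, gene lists and comparisons were chosen with earlier results of these data known. Alternatives included normal scores, ranks by fold enrichment, leaving out each library, a replicate block, stricter lists and other windows.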

Additional observations from a re-analysis of the deposited data

How the results depend on the processing

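The number of exonic regions called by limma was small under every alternative but changed with nearly all. The reported counts were 1 higher and 0 lower. With normal scores they were 12 and 9, ranks by fold enrichment gave 0 higher, regions with entries in all 6 libraries gave 0 higher, and leaving out any 1 library gave 0 higher and 0 lower. Whether replicate numbers pair the libraries is not known. With the replicate block the counts were 1 and 0, and the block changed no call named in the report. Over all regions it raised the number called from 45 to 131. Of alternatives added after seeing the data, normal scores without WT library 3 gave 15 and 5, and normal scores with the replicate block gave 15 and 9. The cause was not tested. The median rank-score difference of the exonic regions kept its sign, at 0.0434 with ranks by fold enrichment and from 0.0555 to 0.0895 with 1 library left out. In the regions with a CTCF core it was 0.136 with normal scores, 0.203 by fold enrichment and from 0.108 to 0.211 with 1 library left out. The exonic share of shared regions, 5.02%, was 4.70% with entries at or above the median −log10 p of each list, 2.60% where most of the region had to be exonic (50% or more), 4.07% with exons of protein-coding genes, 3.49% beyond 3 kb of a start and 5.41% by the distance of the centre (added after seeing the data). The share of summits in exons was 55.4% in those stricter lists. Counted at the summit, coding sequence fell from 51.8% to 14.2%, 5′ UTRs were at 0.993% and noncoding genes at 12.7%. Motif shares followed the length searched, in the order of 100 bp windows and whole regions: AP-1 26.2% and 48.2%, TEAD 9.45% and 32.8%, RUNX 9.15% and 37.3%, GATA 7.73% and 41.2%, SP/KLF 7.08% and 22.9%, CArG box 0.345% and 2.93%. The CTCF core was in 3.75% of 100 bp windows. Total reads per library are unknown, so an absent entry is below that list's limit and no more.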

Other observations

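Of the 2317 exonic regions, 27 had a near-identical copy of their 200 bp summit window elsewhere in the assembly, 24 of them a single one. On the mitochondrial chromosome 0 had a copy. The best-ranked region with a copy had a mean rank of 11515, so the strongest regions described above were without one. In Tnxb, 2 of the 4 regions had 1 copy each, so reads there are uncertain as to their place. Of the regions named by other than protein-coding genes, 200 were in lincRNA genes, 87 in antisense genes and 69 in loci annotated as TEC, transcripts without experimental proof, and 65 regions overlapped exons of several genes, so that the gene given for them is one of several.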
